A study of Mus musculus with 6 samples.

Results

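The glycosyltransferases described here are the enzymes that start, branch, lengthen and cap the sugar chains of glycoproteins and glycolipids. They were picked by name alone, as every row of the normalized count table whose symbol belongs to the Mgat, Galnt, Gcnt, B3gnt, B3galt, B4galt, St3gal, St6gal, St6galnac, St8sia or Fut families, and 81 of the 24129 gene names in the table met that rule. Of these 81 members, 22 had no read in any sample, 16 had reads but averaged under 10 normalized counts over the 6 samples, and 43 were tested for a difference between the groups.

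RNA sequencing was done on T1 and T2 cells, tumor cell populations of the 4T1 model with 3 replicates each. 4T1 is a BALB/c mouse mammary carcinoma line, and the line injected to make the tumor carried GFP (4T1GFP). Tumor cells from a resected mammary tumor overgrew a culture sorted for cells that were GFP-negative and CD140a-positive, and were then sorted apart by GFP level. T1 cells (4T1A in the labels) were GFP-low, adherent and epithelial in shape with a high rate of proliferation, whereas T2 cells (4T1NA) were round, loosely attached and slower to proliferate. Both populations grew in DMEM/F-12 with serum, T2 cells were passaged without trypsin, and the parental 4T1GFP cells were not analysed here. Nothing in the labels says that the replicates came from separate cultures or tumors, so p-values measure the spread between these samples, which may be technical, and attachment, passage and GFP level cannot be told apart from the population itself.

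Glycans are built in the secretory pathway by transferases that each form a particular linkage, so the set of transferases a cell expresses limits the structures it can display. Mgat enzymes open the antennae of N-glycans, Galnt enzymes attach the first sugar of mucin-type O-glycans, and B4galt and B3gnt enzymes alternate galactose and N-acetylglucosamine along the chain. Sialyltransferases and fucosyltransferases usually close the chain, and the caps they add are read by lectins such as selectins, galectins and siglecs.

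Between 18133227 and 20839686 reads per sample fell on genes. Both groups expressed the keratins Krt8 and Krt18, and 3 of 5 epithelial markers were higher in T1 cells, with Epcam at 2989, 2931 and 3502 normalized counts in T1 and 37.2, 30.7 and 36.2 in T2. The epithelial label of T1 cells therefore matched its markers, while T2 cells held little Epcam. The 6 fibroblast markers summed to 20.1 to 40.0 normalized counts in T1 and 0 to 0.979 in T2, with Col3a1, Lum and Pdgfrb at 0 in every sample. The 6 leukocyte markers summed to 58.2 to 87.8 in T1 and 92.8 to 125 in T2, with Tyrobp and Cd3e at 0, and the 5 endothelial markers summed to at most 5.29 in T1 and 4.64 in T2, with Kdr and Emcn at 0. The 2 erythroid or platelet markers in the table reached at most 3.07.

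Transcript start regions are shown for 4 of the 9 members that passed both filters described below. Each of the 4 has a single start listed in RefSeq (GRCm38.p6). The 4 were not ranked by size of difference, and B4galt6, with the largest log2 fold change in either direction (-7.54), is not shown. Each run is the 250 bases before the RefSeq start, 5′ to 3′ on the gene's strand, and capitals mark matches on either strand to GGGCGG, the core of a GC box, to TATAAA, to the E-box CACCTG or to TGANTCA, the AP-1 site. They lie at chr14:32028853-32029102 (Galnt15, plus strand), chr9:35116865-35117114 (St3gal4, minus strand), chr6:72097358-72097607 (St3gal5, plus strand) and chr7:45617356-45617605 (Fut1, plus strand).
Galnt15: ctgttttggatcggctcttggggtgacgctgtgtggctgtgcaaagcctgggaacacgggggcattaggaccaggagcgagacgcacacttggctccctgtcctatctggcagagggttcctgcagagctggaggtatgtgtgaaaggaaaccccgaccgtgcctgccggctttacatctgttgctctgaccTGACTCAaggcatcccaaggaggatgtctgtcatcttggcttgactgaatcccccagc
St3gal4: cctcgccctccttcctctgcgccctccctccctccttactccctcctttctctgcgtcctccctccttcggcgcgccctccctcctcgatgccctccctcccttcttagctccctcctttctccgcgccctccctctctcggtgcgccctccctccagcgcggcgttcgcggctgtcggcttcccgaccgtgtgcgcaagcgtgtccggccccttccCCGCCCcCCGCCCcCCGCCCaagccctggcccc
St3gal5: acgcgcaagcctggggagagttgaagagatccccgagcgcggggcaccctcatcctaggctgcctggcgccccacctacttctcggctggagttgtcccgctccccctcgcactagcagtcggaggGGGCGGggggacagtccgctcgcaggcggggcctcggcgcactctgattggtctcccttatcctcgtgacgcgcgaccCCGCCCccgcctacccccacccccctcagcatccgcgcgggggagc
Fut1: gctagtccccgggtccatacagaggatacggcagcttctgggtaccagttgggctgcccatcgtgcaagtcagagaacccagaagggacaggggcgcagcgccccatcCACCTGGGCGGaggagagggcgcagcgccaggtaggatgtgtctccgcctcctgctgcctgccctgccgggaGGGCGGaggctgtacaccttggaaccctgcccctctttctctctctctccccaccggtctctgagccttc
The St3gal4 and St3gal5 runs held 25 CpG sites each, Fut1 held 12 and Galnt15 held 8, against a median of 6 over all 32851 RefSeq start regions of this length and 12 over the 84 start regions of 58 members. GGGCGG occurred 3 times before St3gal4, 2 times before St3gal5 and 2 times before Fut1, where 1 copy overlapped the only CACCTG. It was found in 32.7% of all start regions and in 42 of the 84 of the members. The run before Galnt15 held none of these GC boxes and 1 TGANTCA, a motif present in 6.75% of all start regions. CACCTG was present in 17.2% of all start regions, and TATAAA, which had no match in the 4 runs, in 12.4%. These matches are letters in a window and were not tested for binding. In the mm10 gene annotation the St3gal4 gene reaches further upstream, to chr9:35119268, and the Fut1 gene begins at chr7:45617289, so both runs lie downstream of another annotated start of their gene. The Galnt15 gene begins there at chr14:32028989, inside its run, and the TGANTCA match lies downstream of that start. The St3gal5 gene begins at chr6:72097592, near the end of its run.

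Of 43 members tested, 7 were lower and 2 were higher in T1 than in T2 cells by both filters, an adjusted p under 0.01 and a log2 fold change beyond 2 in either direction. Over all 11514 genes tested, 4.20% were lower and 4.17% higher by the same filters (8.37% together), against 16.3% and 4.7% of the members. St3gal4, St3gal5, St3gal6, St6gal1, St6galnac2, Galnt15 and B4galt6 were the lower ones, and Gcnt1 and Fut1 the higher ones. 5 of the 9 are sialyltransferases. B4galt6, Galnt15, Gcnt1, Fut1 and St6galnac2 averaged under 10 normalized counts in 1 of the groups, so these 5 entered the test through the other group alone and had to differ, which leaves St3gal4, St3gal5, St3gal6 and St6gal1 as the calls with both groups above the minimum. With the wider limits of adjusted p under 0.05 and log2 fold change beyond 1, 4 members were higher and 12 lower in T1, where 9.86% and 11.4% of all genes were.

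By adjusted p alone, 23 members were lower and 8 higher in T1 cells, or 53.5% and 18.6% of those tested, against 24.4% and 25.1% of all genes (49.5% together). The median log2 fold change was -0.45 over the 43 members and -0.01 over all genes. The values of the groups did not overlap for 36 members, where 68.1% of all genes had no overlap.

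**Figure D1:**
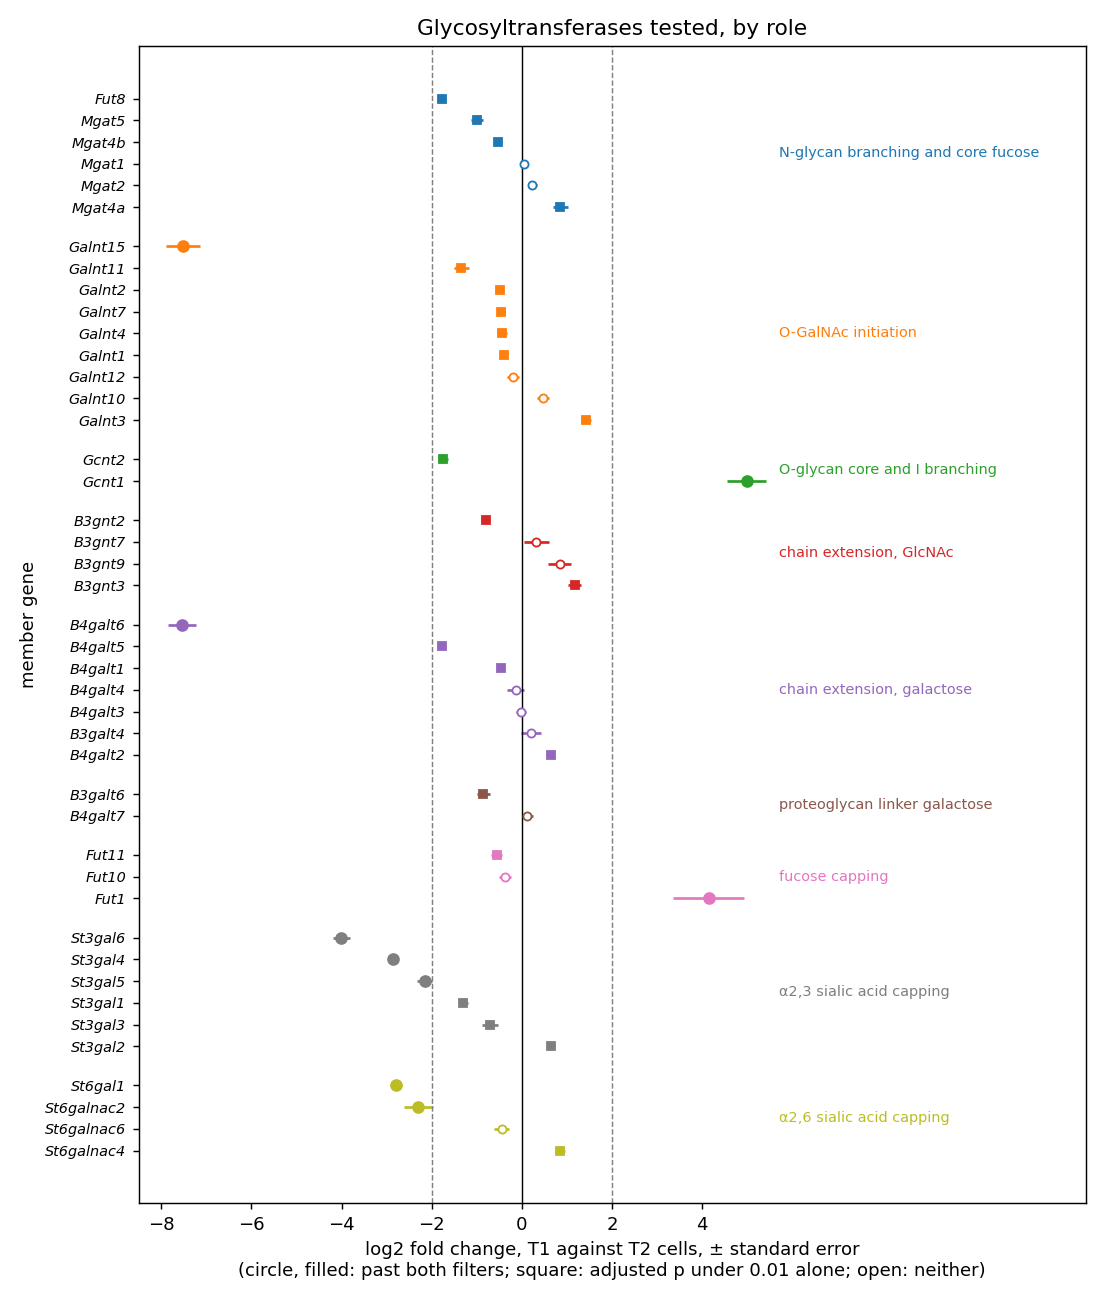
Log2 fold change of T1 against T2 cells (x axis, with its standard error) for the 43 members tested (y axis), grouped and coloured by role. Filled circles passed both filters, squares passed the adjusted p alone and open circles neither. 5 of the 7 circles left of the dashed line at -2 are sialyltransferases, with B4galt6 and Galnt15 farthest out, and Gcnt1 and Fut1 lie right of the line at 2.

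**Figure D2:**
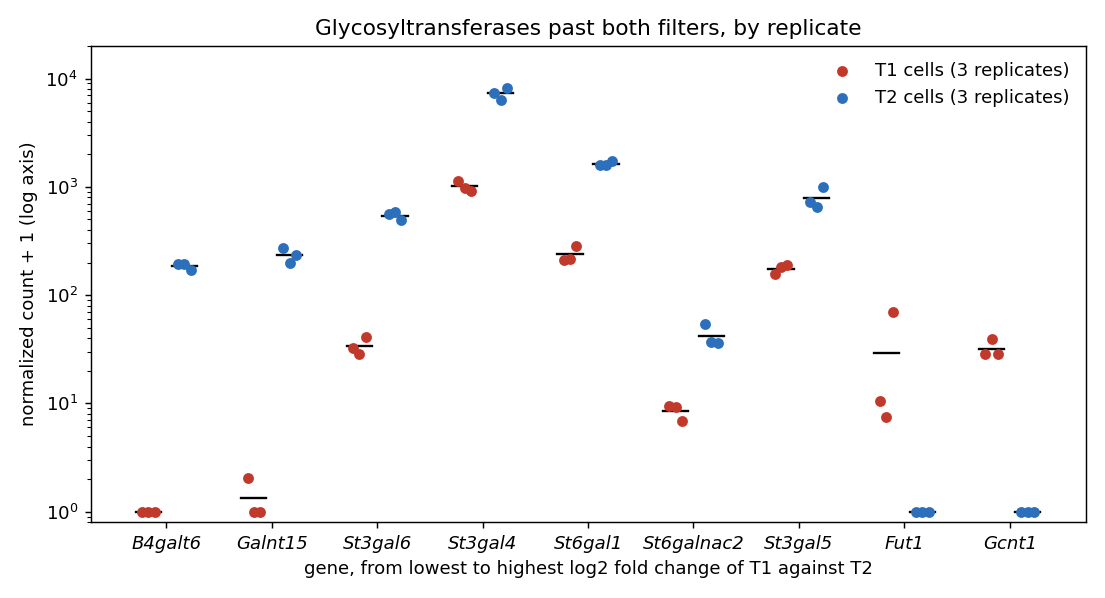
Normalized count + 1 on a log axis in each of the 3 T1 and 3 T2 replicates for the 9 members past both filters, with the group means as bars. The groups do not overlap for any of the 9. 1 T1 replicate of Fut1 lies well above the other 2.

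Of the 20 sialyltransferases, 6 had no read, 4 were below the minimum and 10 were tested. T1 cells had lower levels of 7 of the 10 and higher levels of St3gal2 and St6galnac4 by adjusted p, and 5 passed both filters, all lower in T1, of which St6galnac2 was carried past the minimum by T2 alone. Of all genes, 24.4% were lower and 25.1% higher in T1 by adjusted p, and 4.20% were lower by both filters. Summed per kilobase of exon, sialyltransferase transcripts came to 1577, 1472 and 1495 normalized counts per kb in T1 and 4453, 4162 and 4905 in T2, a ratio of 2.97 between the means. Every T2 sum lay far above every T1 sum.

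The enzymes that add sialic acid in α2,3 linkage were all tested. St3gal4, which caps the terminal galactose of N-acetyllactosamine chains, was the most abundant sialyltransferase of T2 cells, with 7354, 6400 and 8122 normalized counts against 1134, 983 and 915 in T1 (log2 fold change -2.85, SE 0.11, adjusted p = 1.54e-08). It was thus 7.21-fold higher in T2, with no overlap between the groups. Per kilobase it stood at 346 ± 38.3 in T1 and 2495 ± 295 in T2 (SD, n = 3), which was 22.8% ± 1.8 and 55.3% ± 2.3 of the sialyltransferase sum. In T1 cells St3gal2 held a share of 25.1% ± 0.9, close to that of St3gal4, and in T2 cells 5.4% ± 0.8.

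**Figure D3:**
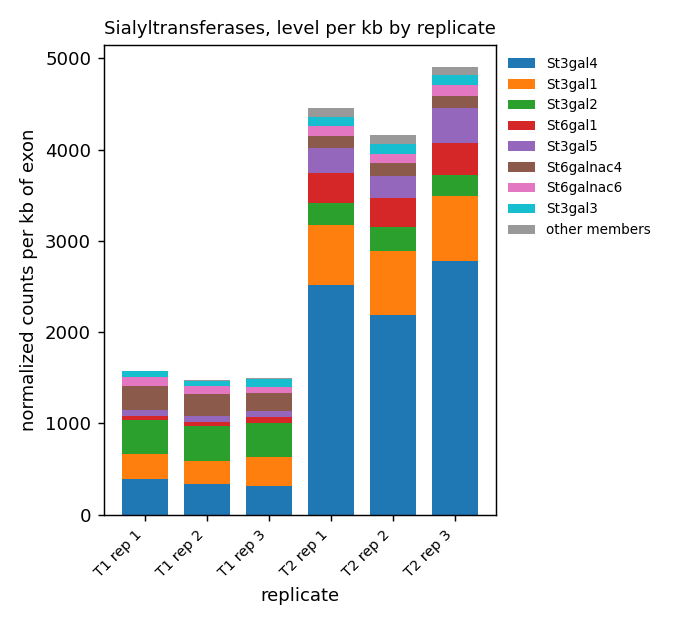
Normalized counts per kb of exon (y axis) of the sialyltransferases, stacked by gene in each replicate (x axis). The T2 columns reach 4162 to 4905 and the T1 columns 1472 to 1577, and the St3gal4 segment takes up most of the gap.

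St3gal6, which acts on the same kind of chain as St3gal4, was the α2,3 enzyme with the largest fold difference. It had 31.7, 27.9 and 40.0 normalized counts in T1 and 557, 581 and 490 in T2, 16.3-fold higher in T2 (log2 fold change -4.00, SE 0.18, adjusted p = 4.68e-08). The T1 values were all near the low end of what was tested and the T2 values all more than an order of magnitude higher. On the opposite strand 26.0% of its exonic bases lie under exons of Dcbld2, at 2997 ± 132 normalized counts in T1 and 3807 ± 121 in T2, and the kit used does not mark strand, so its reads there cannot be told apart from those of Dcbld2. St3gal4 likewise shares 14.1% of its exonic bases with 4930581F22Rik, which went from 35.0 ± 6.01 in T1 to 295 ± 32.4 in T2.

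St3gal5, the synthase of the ganglioside GM3, counted 156, 180 and 187 in T1 and 729, 645 and 996 in T2, a 4.53-fold difference (log2 fold change -2.15, SE 0.17, adjusted p = 1.96e-06). Every T2 replicate lay above every T1 replicate, and replicate 3 of T2 was the highest. Without that replicate the log2 fold change was -1.97 and St3gal5 no longer passed the fold filter. St3gal1, which caps the core 1 O-glycan, was lower in T1 with 1866, 1727 and 2199 against 4522, 4779 and 4909 (log2 fold change -1.30, SE 0.10, adjusted p = 1.37e-06). St3gal3 was also lower, at 186 ± 49.8 in T1 and 299 ± 26.0 in T2 (log2 fold change -0.71, SE 0.19, adjusted p = 0.00689). St3gal2, which shares core 1 and ganglioside acceptors with St3gal1, went the other way, with 1927, 1930 and 1892 normalized counts in T1 and 1224, 1314 and 1144 in T2 (log2 fold change 0.64, SE 0.08, adjusted p = 6.49e-05). It was the only α2,3 enzyme higher in T1 cells.

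In α2,6 linkage, St6gal1 and St6galnac2 were lower in T1 cells by both filters and St6galnac4 was higher by adjusted p. St6gal1, the main enzyme that sialylates N-glycans in this linkage, had 212, 217 and 286 normalized counts in T1 and 1594, 1577 and 1742 in T2, 6.88-fold higher in T2 (log2 fold change -2.79, SE 0.13, adjusted p = 5.76e-08). The lowest T2 value was several times the highest T1 value. Its share of the α2,6 sum per kilobase was 13.5% ± 4.1 in T1 and 57.5% ± 0.8 in T2. 4.07% of its exonic bases are shared with the gene BC106179.

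St6galnac4, which adds sialic acid to the GalNAc of sialylated core 1 glycans, was the leading α2,6 enzyme of T1 cells, with 64.3% of that sum against 22.6% in T2. Its normalized counts were 1746, 1569 and 1289 in T1 and 857, 869 and 817 in T2 (log2 fold change 0.84, SE 0.11, adjusted p = 9.49e-05). St6galnac2, an enzyme of the same O-glycan pathway, was much scarcer, at 8.46, 8.37 and 5.86 in T1 and 52.9, 35.8 and 35.3 in T2 (log2 fold change -2.30, SE 0.32, adjusted p = 0.000126). Its T1 mean lay under the minimum for testing, so it had to differ, and the fold filter was missed with a pseudocount of 5 (-1.87). Exons of 1810032O08Rik on the opposite strand cover 8.58% of the exonic bases of St6galnac2. That gene stood at 610 ± 85.9 normalized counts in T1 and 795 ± 199 in T2, and reads there cannot be told apart. St6galnac6 did not pass, at 389 ± 87.9 and 522 ± 51.3 (log2 fold change -0.44, SE 0.17, adjusted p = 0.0388). St6gal2, St6galnac1 and St6galnac3 had no read, and St6galnac5 had 1 read in T2.

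Little was read from the α2,8 enzymes, which build disialyl caps and polysialic acid, and none of the 6 was tested. St8sia1, the GD3 synthase, had 4, 6 and 7 reads in T1 and 0, 0 and 2 in T2, an 8.59-fold ratio with a 95% exact counting interval of 2.04 to 76.6. St8sia4 and St8sia6 had at most 2 reads in all, and St8sia2, St8sia3 and St8sia5 none.

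Among the enzymes that add galactose to growing chains, B4galt5 and B4galt6 stood out, both of which can make lactosylceramide, the precursor of most gangliosides. B4galt6 had no read in any T1 replicate and 192, 195 and 171 normalized counts in T2, at least 62.7-fold higher in T2 with T1 set at 3 reads per library. B4galt5 had 1651, 1469 and 1405 in T1 and 4963, 5180 and 5379 in T2, 3.43-fold higher in T2 (log2 fold change -1.78, SE 0.08, adjusted p = 5.85e-08). Both were thus higher in all T2 replicates, one as a gene read in T2 alone and the other as the most abundant galactosyltransferase there. B4galt5 made up 29.4% ± 2.8 of the galactose extension sum per kilobase in T1 and 57.1% ± 1.4 in T2.

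B4galt1, the broadly expressed enzyme of N-acetyllactosamine synthesis, was lower in T1 at 1519 ± 36.9 against 2081 ± 52.6 (log2 fold change -0.45, SE 0.07, adjusted p = 0.000352). Its close relative B4galt2 was higher in T1 at 1474 ± 168 against 943 ± 60.0 (log2 fold change 0.64, SE 0.10, adjusted p = 0.000323). In T1 cells B4galt1, B4galt5 and B4galt2 held like shares of the sum, 30.1%, 29.4% and 24.5%, while in T2 cells they held 23.4%, 57.1% and 8.9%. B4galt3, B4galt4 and B3galt4 did not pass the test, with log2 fold changes of -0.03 (SE 0.11), -0.14 (SE 0.18) and 0.20 (SE 0.22). Exons of Ppox on the opposite strand cover 14.5% of the exonic bases of B4galt3. The whole group summed to 1193 ± 43.9 normalized counts per kb in T1 and 2102 ± 33.3 in T2. B3galt1 and B3galt5, which make type 1 chains or related extensions, had no read, and B3galt2 had 3 reads in T1 and 2 in T2.

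The enzymes that add N-acetylglucosamine differed in opposite directions. B3gnt2, the principal enzyme of polylactosamine synthesis, was lower in T1 with 2066, 1992 and 1857 normalized counts against 3347, 3274 and 3720 (log2 fold change -0.80, SE 0.08, adjusted p = 1.34e-05). B3gnt3, which extends core 1 O-glycans, was higher in T1 with 1093, 1274 and 1591 against 536, 564 and 642 (log2 fold change 1.17, SE 0.14, adjusted p = 3.9e-05). In neither gene did the groups overlap. B3gnt2 and B3gnt3 held 51.2% ± 6.0 and 46.4% ± 5.8 of this group's sum per kilobase in T1, and 80.1% ± 0.6 and 18.4% ± 0.7 in T2. B3gnt7 and B3gnt9 did not pass the test, with log2 fold changes of 0.32 (SE 0.28) and 0.84 (SE 0.25, adjusted p = 0.0143). Exons of other genes on the opposite strand cover 12.6% and 16.5% of their exonic bases. B3gnt4 and B3gnt8 had at most 8 reads in a group, and B3gnt5 had none.

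Of the 16 Galnt enzymes, which begin mucin-type O-glycosylation, 9 were tested, 6 were lower in T1 by adjusted p and Galnt3 was higher, where 24.4% of all genes were lower and 25.1% higher. Galnt15 was the 1 member of the family past both filters. It had 1 read in T1 replicate 1, none in the other T1 replicates, and 269, 199 and 235 normalized counts in T2, where 722 reads were counted in all (log2 fold change -7.52, SE 0.37, adjusted p = 8.71e-08). The ratio of T2 to T1 was 715 with a 95% exact counting interval of 128 to 28271, so its size is poorly fixed. Galnt11 was lower in T1 at 210 ± 42.3 against 531 ± 70.1 (log2 fold change -1.35, SE 0.17, adjusted p = 5.56e-05).

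Galnt3, an O-glycosyltransferase of epithelial cells, had 1662, 1802 and 1743 normalized counts in T1 and 568, 736 and 651 in T2 (log2 fold change 1.42, SE 0.11, adjusted p = 1.59e-06). It was 2.66-fold higher in T1 and took 16.1% ± 0.4 of the family's sum per kilobase there, against 5.1% ± 0.6 in T2. Its direction was that of Epcam, Cdh1 and Krt14, the 3 of 5 epithelial markers that were higher in T1. The other markers, Krt8 and Krt18, did not pass, with log2 fold changes of 0.20 and 0.10. Any part of these markers in the Galnt3 result was not tested. Galnt2, the most abundant Galnt in both populations, was 1.40-fold higher in T2, at 3139, 3740 and 4002 in T1 and 4998, 5175 and 5072 in T2 (log2 fold change -0.49, SE 0.09, adjusted p = 0.00092). Galnt1, Galnt4 and Galnt7 were lower in T1 by a similar size, with log2 fold changes of -0.41, -0.45 and -0.46, and Galnt10 and Galnt12 did not pass at 0.47 (adjusted p = 0.0109) and -0.19. Galnt4 shares exonic bases with Poc1b on the same strand. Galnt6 and Galnt16 had at most 6 reads in a group, and Galnt5, Galnt9, Galnt13, Galnt14 and Galnt18 had none. The family's sum came to 2306, 2566 and 2547 normalized counts per kb in T1 and 2875, 2992 and 2973 in T2, so every T2 sum lay above every T1 sum.

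**Figure D4:**
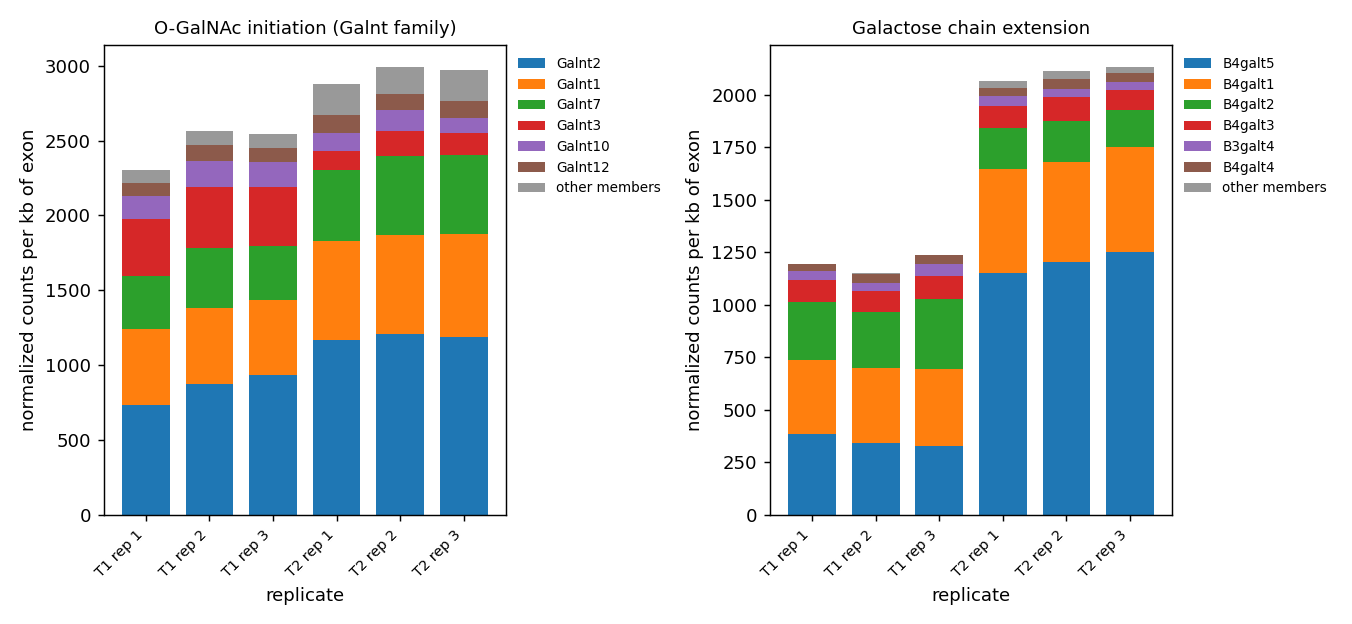
Normalized counts per kb of exon (y axis) in each replicate (x axis) for the Galnt family on the left and the enzymes of galactose extension on the right, stacked by gene. The Galnt3 segment is wider in T1 than in T2, and the B4galt5 segment widens from 29.4% of the T1 columns to 57.1% of the T2 columns.

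Branching of O-glycans and of the lactosamine chain showed opposite directions. Gcnt1, the core 2 branching enzyme, had 27.5, 38.1 and 27.3 normalized counts in T1 (95 reads in all) and no read in T2, so it was at least 10.6-fold higher in T1 (log2 fold change 4.98, SE 0.44, adjusted p = 4.73e-06). Gcnt2, which places the I branches on polylactosamine, had 453, 509 and 401 in T1 and 1622, 1576 and 1387 in T2, a 3.36-fold difference (log2 fold change -1.75, SE 0.11, adjusted p = 5.6e-07). Exons of A730081D07Rik and Gm31683 on the opposite strand cover 11.0% of the exonic bases of Gcnt2, and reads there cannot be told apart. Gcnt1 was thus present in all T1 replicates at a low level, and Gcnt2 in all 6 samples. The other Gcnt enzymes were barely read, as Gcnt3 had 3 reads in T1 and 8 in T2, Gcnt7 had 2 in T1 and Gcnt4 had none. B3gnt6, the core 3 synthase, had 5, 4 and 3 reads in T1 and none in T2.

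Of the 6 N-glycan enzymes tested, 3 were lower and 1 higher in T1 by adjusted p, and none passed both filters. Together those past the adjusted p were 66.7% of the group, against 49.5% of all genes (24.4% lower and 25.1% higher). Mgat1 and Mgat2, which open the first antennae, did not pass, with log2 fold changes of 0.04 (SE 0.09, adjusted p = 0.691) and 0.23 (SE 0.11, adjusted p = 0.0825) and overlapping groups. Fut8, the only enzyme that adds core fucose, had 864, 1015 and 1010 normalized counts in T1 and 3321, 3132 and 3463 in T2, 3.43-fold higher in T2 (log2 fold change -1.78, SE 0.09, adjusted p = 1e-07). Mgat5, which opens the β1,6 antenna, had 231, 269 and 282 in T1 and 466, 591 and 506 in T2 (log2 fold change -0.99, SE 0.13, adjusted p = 0.000104). For both genes all T2 values were above all T1 values.

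The pair of enzymes that open the antenna on the other arm moved apart. Mgat4b was lower in T1, with 3917, 3939 and 4393 normalized counts against 6333, 5607 and 5742 (log2 fold change -0.53, SE 0.08, adjusted p = 0.000219), with no overlap, and Mgat4a was higher in T1, at 356 ± 51.8 against 197 ± 34.2 (log2 fold change 0.86, SE 0.17, adjusted p = 0.00112). Mgat4b held 52.7% ± 4.0 of the N-glycan group's sum per kilobase in T1 and 58.9% ± 2.0 in T2. Mgat3, which adds the bisecting residue, had 11, 0 and 28 reads in T1 and 0, 0 and 3 in T2 and was not tested. Mgat5b, the brain-enriched relative of Mgat5, had no read, nor had Mgat4c and Mgat4e, and Mgat4d had 2 reads, both in T2.

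Few fucosyltransferases other than Fut8 were expressed. Fut1, which makes the H antigen, had 9.52, 6.51 and 68.3 normalized counts in T1 and no read in T2, at least 9.59-fold higher in T1 (log2 fold change 4.14, SE 0.78, adjusted p = 0.000992). Replicate 3 of T1 held 70 of its 86 reads, and without that replicate the bound was 2.74-fold, its mean fell below the minimum and it was not compared. Fut2, the related secretor enzyme, had 1, 3 and 4 reads in T1 and 10, 6 and 17 in T2 and was below the minimum. Of the α1,3 enzymes that complete Lewis x structures and selectin ligands, Fut4 and Fut9 had no read and Fut7 had 3 reads, all in T2. At this depth a count of 0 allows up to 3 reads per library, so low expression of these genes was not detectable. Fut11, the most abundant fucosyltransferase after Fut8, was lower in T1, with 302, 258 and 316 normalized counts against 422, 420 and 444 (log2 fold change -0.56, SE 0.12, adjusted p = 0.00244). Fut10 did not pass (log2 fold change -0.37, SE 0.14, adjusted p = 0.034). Fut10 and Fut11 were picked by name, and whether they cap chains was not tested. The pseudogene Fut4-ps1 and the antisense gene St8sia3os, also caught by the naming rule, had no read.

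The enzymes of the proteoglycan linker were both expressed. B3galt6 was lower in T1 at 162 ± 20.5 against 293 ± 2.57 (log2 fold change -0.86, SE 0.14, adjusted p = 0.000375), and B4galt7 did not pass, with overlapping groups of 479, 413 and 395 against 426, 385 and 375 (log2 fold change 0.12, SE 0.12, adjusted p = 0.423).

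Genes that supply, trim, carry or read these glycans, but lie outside the naming rule, were taken from 5 lists of 95 genes, of which 67 were tested. By both filters 3 were higher and 7 lower in T1, against 4.17% and 4.20% of all genes, and by adjusted p alone 16 were higher and 29 lower, or 23.9% and 43.3% against 25.1% and 24.4%. The higher counts thus sat near the share of all genes. 7 of the 10 past both filters averaged under 10 normalized counts in 1 group and had to differ, among them Man1c1, B4galnt3, Lgals7, Siglecg, Sele and Selp. Of 18 genes of sugar nucleotide supply tested, 7 were higher and 3 lower by adjusted p, together 55.6% against 49.5% of all genes, and none passed both filters. Gne, which starts sialic acid synthesis, was higher in T1 at 1101 ± 179 against 334 ± 24.6 (log2 fold change 1.71, SE 0.13, adjusted p = 1.59e-06), the reverse of the direction of the sialyltransferase sum. Cmas, which activates sialic acid, stood at 1273 ± 13.3 and 1272 ± 63.2 (log2 fold change 0.00, SE 0.08, adjusted p = 0.988), and the transporter Slc35a1 was lower in T1 (log2 fold change -0.51, adjusted p = 0.00168).

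Of 13 glycosidases tested, 7 were lower and 1 higher in T1 by adjusted p, together 61.5% against 49.5% of all genes, and the 2 past both filters were Neu2, a cytosolic sialidase, and Man1c1, a Golgi mannosidase. Neu2 had 11.6, 19.5 and 6.83 normalized counts in T1 and 79.3, 39.9 and 78.9 in T2 (log2 fold change -2.34, adjusted p = 0.000557). Man1c1 had 6.35, 3.72 and 4.88 in T1 and 28.4, 14.3 and 45.5 in T2 (log2 fold change -2.23, adjusted p = 0.00148). Both were low, and Neu2 missed the fold filter without T1 replicate 3 (-1.99), as Man1c1 did without T2 replicate 3 (-1.85), while without T2 replicate 1 Man1c1 missed the adjusted p (0.0101). With a pseudocount of 5 Man1c1 also missed the fold filter. The more abundant Golgi mannosidase Man1a was also lower in T1, at 852 ± 74.8 against 3029 ± 179 (log2 fold change -1.83, adjusted p = 9.07e-08).

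Of 16 other transferases tested, 3 were higher and 7 lower by adjusted p, together 62.5% against 49.5% of all genes. B4galnt3, which caps chains with GalNAc, was the 1 past both filters, with 695, 801 and 1133 normalized counts in T1 and 0, 7.17 and 1.86 in T2 (log2 fold change 8.23, adjusted p = 1.34e-06). The study itself had listed B4galnt3 from these samples, so its count is not independent evidence. C1galt1, the core 1 synthase, was higher in T1 (log2 fold change 0.75, adjusted p = 0.0012).

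Of 10 glycan carriers tested, 2 were higher and 6 lower in T1 by adjusted p, and 1 each by both filters, where 49.5% of all genes passed the adjusted p and 8.37% both filters. Spn, the heavily sialylated CD43, was lower in T1 with 401, 233 and 381 against 1673, 1565 and 1780 (log2 fold change -2.34, adjusted p = 2.04e-06), and Mcam was higher in T1 with 1121, 1405 and 735 against 229, 305 and 209 (log2 fold change 2.10, adjusted p = 1.86e-05). Mcam missed the fold filter without T1 replicate 2 (1.89) or T2 replicate 3 (1.99). Of 10 lectins tested, 3 were higher and 6 lower by adjusted p, against the same 49.5% of all genes. The selectins Sele and Selp, receptors for sialylated and fucosylated glycans normally found on endothelium and platelets, had at most 1.86 and 2.93 normalized counts in T1 and 4567 to 4714 and 4445 to 5258 in T2. Lgals7, a galectin of epithelia, was 58.5-fold higher in T2 (log2 fold change -5.74, adjusted p = 1.6e-08), and Siglecg, a sialic acid receptor of B cells, was 69.0-fold higher in T1 with a 95% exact counting interval of 23.3 to 337. In the same samples the endothelial markers and Pf4, the only platelet marker in the table, were at or near 0 in both groups. The leukocyte markers summed to at most 125, and most of that sum was Cd68, at means of 72.9 in T1 and 94.6 in T2. Ptprc had 0 reads in T1 and 14 in T2.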

How the data were processed

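Poly(A) RNA from 3 T1 and 3 T2 samples was sequenced as paired 150 bp reads. The authors trimmed the reads and mapped them with TopHat2 (mm10). HTSeq gave the reads of each gene, DESeq2 size factors scaled them, and the deposited signal values are these normalized counts. The annotation, versions and strand setting are not given in the sources used here. Dividing each sample by its smallest positive value gave whole reads for 100% of values within 0.01 reads, from which depth (18133227 to 20839686 reads) and counting intervals were taken. Intervals and floors cover counting error only, since reads were not counted by molecular identifier. 27 gene names had become dates and were left as they are.

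The 11514 genes that averaged 10 normalized counts or more were tested with limma 3.58.1 (trend, R 4.3.3) on log2(normalized count + 1), with Benjamini-Hochberg adjustment over all of them. Log2 fold changes refer to these shifted values and are too small for low genes, and ratios are of group means. Both filters mean adjusted p under 0.01 and log2 fold change beyond 2. Where a group had 0 reads, a floor of 3 reads per library gave the bound, and with 1 to 3 reads an exact 95% interval is given. Levels per kb use the union of exons (GENCODE, GRCm38), and all 81 members matched. An exact permutation test of 3 against 3 cannot go below p = 0.1 and was not used for calls. The scripts were tested on simulated data. Replicates of a group differed by more than sampling noise.

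Members were chosen by the naming rule, and these and the lists were chosen with earlier results of these data known. Members past both filters and the most abundant member of each role are given sample by sample, and other members by means, reads or counts, except that St3gal1, St3gal2, B3gnt3, Galnt3, Fut8 and Mgat5 were also given sample by sample after their values were seen. Of the lists, genes past both filters are named, except 1 that is not reported here, and Gne, Cmas, Slc35a1, Man1a and C1galt1 were added after their values were seen. Alternatives were edgeR 4.0.16, DESeq2 1.42.0 on recovered reads, other scalings, filters, pseudocounts and thresholds, a replicate block and each replicate left out.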

Additional observations from a re-analysis of the deposited data

How the results depend on the processing

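The numbers of members past both filters, 2 higher and 7 lower in T1 cells, and of pathway genes outside the naming rule, 3 higher and 7 lower, were the same genes with edgeR, DESeq2, quantile or library-total scaling, no trend and a pseudocount of 0.5. With a pseudocount of 5, St6galnac2 and Man1c1 missed the fold filter. No result changed direction. With a minimum mean of 50 normalized counts, limma called 0 members higher, since Gcnt1 and Fut1 fell below it, and 4 pathway genes lower. At that minimum 7 of the 38 members tested were higher in T1 with an unadjusted limma p under 0.05. St6galnac2, called lower in the main test, averaged 24.4 normalized counts and also fell below that minimum. With no filter 4 members were higher, with B3gnt6 and St8sia1 added. With adjusted p under 0.05 and log2 fold change beyond 1, 4 members were higher and 12 lower (9.86% and 11.4% of all genes), and 7 pathway genes were higher and 12 lower. Leaving out each replicate gave 1 to 2 members higher, 6 to 7 lower, 2 to 3 pathway genes higher and 6 to 8 lower, with Fut1 lost without T1 replicate 3 and St3gal5 without T2 replicate 3. A replicate block gave 2 and 7 members and 3 and 7 pathway genes. Same-numbered replicates correlated in their deviations at 0.0575, 0.172 and 0.104, which was the best match for T2 replicates 2 and 3. T2 replicate 1 correlated best with T1 replicate 3 (0.0719). The replicate number is not known to pair samples, so they were taken to share only a number. Fitted fold changes of genes at or near 0 reads in a group depended on the offset, from -9.37 to -5.48 for Galnt15, -10.57 to -5.25 for B4galt6, 2.83 to 7.99 for Gcnt1 and 2.21 to 7.85 for Fut1. With the longest transcript as length, St3gal4 held 58.5% of the T2 sialyltransferase sum. Other shares moved further, with St6gal1 at 45.9% of the T2 α2,6 sum, against 57.5% by the union of exons. B3gnt2 held 58.4% of its group's T1 sum, against 51.2% by the union of exons. Sequencing depth limits members under 10 normalized counts, and transcript levels say nothing of enzyme activity or of the glycans on these cells, which were not measured here.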
